A study of Mus musculus with 18 samples.

Results

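The TGF-beta system was examined through 10 genes of the deposited expression tables: the 3 ligands Tgfb1, Tgfb2 and Tgfb3, the 3 receptors Tgfbr1, Tgfbr2 and Tgfbr3, and the 4 latent TGF-beta binding proteins Ltbp1, Ltbp2, Ltbp3 and Ltbp4. They were listed by gene symbol, with earlier results of these data known. Each matched 1 Ensembl identifier among 30072 in the tables, and all 10 were among the 15054 genes that passed the filter on low counts. RNA came from the cardiac septum of 18 CD-1 mice of both sexes, at least 8 weeks old, in 3 groups of 6. Irradiated mice received a single dose of 25 Gy to the heart under isoflurane and were examined at 2 weeks or at 6 weeks post-IR. By the methods of the study, controls received the anesthesia and CT imaging without irradiation. The time at which controls were examined is not given, so in comparisons with them time or age cannot be told apart from irradiation. The age of single mice when examined is not given either. From 2 to 6 weeks, time since irradiation therefore cannot be told apart from age. The labels name gamma rays, untreated controls and the septum, where the methods of the study name X-rays, sham controls and ventricular tissue, and the sex of single mice is not given. Estimated counts summed to between 11522987 and 15501019 per mouse, and a floor of 3 counts was worth at most 0.26 CPM, a count taken relative to the library total, and that covers counting error only.

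TGF-beta is made as a precursor whose propeptide keeps the cytokine latent and is tied to an LTBP, which anchors the complex in extracellular matrix. Integrins, thrombospondin and proteases release the ligand. The free ligand binds TGFBR2, which recruits and phosphorylates TGFBR1, and TGFBR1 phosphorylates SMAD2 and SMAD3, while TGFBR3 (betaglycan) presents ligand, TGF-beta 2 above all, to that pair. In the heart the pathway is known for activating fibroblasts and for matrix production, and TGF-beta is widely studied in radiation injury. The study compared irradiated with unirradiated hearts in the context of fibrosis and conduction, and the same contrasts are given here for the ligand and receptor genes.

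Members that changed in at least 1 comparison were Tgfb1, Tgfbr1, Tgfbr2 and Ltbp1, and the stretch of sequence before the start of each is shown here because these are the genes on which the results turn. Tgfb1 (ENSMUSG00000002603) lies at chr7:25687002-25705077, Tgfbr1 (ENSMUSG00000007613) at chr4:47353222-47414931, Tgfbr2 (ENSMUSG00000032440) at chr9:116084293-116175360 and Ltbp1 (ENSMUSG00000001870) at chr17:75005568-75392512 in GENCODE M21 on GRCm38. That annotation lists 5, 5, 2 and 10 transcripts for them in that order, and the counts are sums over the transcripts of a gene. The RefSeq promoter windows (GRCm38.p6, 250 bases before to 50 after a start) covered 8 of the 10 members, without Tgfb3 and Tgfbr3, in 12 windows. The 250 bases before the first listed start are printed, 5′ to 3′ on the strand of the gene, at chr7:25686752-25687001 (plus strand) for Tgfb1, chr4:47352972-47353221 (plus strand) for Tgfbr1, chr9:116175364-116175613 (minus strand) for Tgfbr2 and chr17:75005279-75005528 (plus strand) for Ltbp1. Capitals mark the GC box GGGCGG on either strand and the cAMP response element TGACGTCA.
Tgfb1: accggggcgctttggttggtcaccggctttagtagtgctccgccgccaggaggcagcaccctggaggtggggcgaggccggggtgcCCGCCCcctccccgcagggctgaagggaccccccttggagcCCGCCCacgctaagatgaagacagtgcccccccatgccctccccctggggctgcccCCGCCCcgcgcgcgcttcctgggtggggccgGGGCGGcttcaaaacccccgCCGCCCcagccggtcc
Tgfbr1: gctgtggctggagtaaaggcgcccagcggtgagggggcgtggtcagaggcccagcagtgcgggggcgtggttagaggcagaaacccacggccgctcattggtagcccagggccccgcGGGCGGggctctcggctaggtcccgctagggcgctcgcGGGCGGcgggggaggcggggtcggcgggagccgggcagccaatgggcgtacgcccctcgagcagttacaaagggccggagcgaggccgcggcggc
Tgfbr2: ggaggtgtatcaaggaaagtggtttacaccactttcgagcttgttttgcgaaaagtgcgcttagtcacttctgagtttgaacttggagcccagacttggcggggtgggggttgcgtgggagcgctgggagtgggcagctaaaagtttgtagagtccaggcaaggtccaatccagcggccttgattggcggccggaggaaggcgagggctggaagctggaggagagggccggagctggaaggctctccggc
Ltbp1: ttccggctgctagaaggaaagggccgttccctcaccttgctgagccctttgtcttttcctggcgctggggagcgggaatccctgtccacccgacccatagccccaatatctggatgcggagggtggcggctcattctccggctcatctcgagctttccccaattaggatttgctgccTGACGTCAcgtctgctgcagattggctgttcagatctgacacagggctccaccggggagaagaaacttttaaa

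Tgfb1 had the most GC boxes of these sequences, 5 in the printed stretch, whose GC content was 75.2%. Tgfbr1 had 2 in its printed stretch, at a GC content of 74.8%, whereas the stretches of Tgfbr2 and Ltbp1 had no GC box and GC contents of 58.4% and 56.8%. Over the members, 6 of 12 windows held a GC box, in Tgfb1, Tgfbr1, Ltbp2 and Ltbp4, and 35.7% of 32851 RefSeq windows of the same length did. The cAMP response element was found in 1 member window, that of Ltbp1, and in 1.79% of all windows. The CAGA box CAGACA, named for Smad binding, was found on either strand in 4 of 12 member windows (Tgfb2, Tgfbr1, Ltbp1 and Ltbp3) and in 21% of all windows. The AP-1 letters TGANTCA were found in that of Ltbp3 and in 7.81% of all windows, and the Smad palindrome GTCTAGAC in 0 of 12 and 0.213%. No motif searched contains another, though matches can overlap, as TGANTCA and CAGACA did in Ltbp3, and a gene with several starts has several windows. A match describes letters and not a bound site.

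In unirradiated hearts, levels as TPM, which corrects for transcript length, put Ltbp4 far above the other members. Ltbp4, which encodes an LTBP of elastic tissue, stood at 87.2 ± 22.1 TPM (SD, n = 6), between 59.6 and 126.1. Below it came Tgfbr3 at 19.2 ± 2.13, Tgfbr2 at 17.8 ± 3.23, Ltbp1 at 12.9 ± 1.91, Tgfb1 at 12.6 ± 2.02 and Ltbp3 at 11.8 ± 3.49 TPM. Tgfbr1 (7.79 ± 1.44), Tgfb3 (6.68 ± 2.53), Ltbp2 (4.72 ± 5.46) and Tgfb2 (3.46 ± 2.00) were the lowest. Only Ltbp4 was separate from its neighbour in this order, and the ranges of every other pair of neighbours overlapped. At 6 weeks post-IR Ltbp4 was still first at 97.1 ± 15.6 TPM, but Tgfbr2 (31.6 ± 4.85) and Tgfb1 (27.1 ± 3.41) now came next, ahead of Tgfbr3 (21.3 ± 2.37). Tgfbr1 followed at 15.2 ± 3.40 TPM, with ranges overlapping those of its neighbours Tgfbr3 and Ltbp3. The 6-week ranges of Tgfbr2 and Tgfb1 also overlapped, as did those of Tgfb1 and Tgfbr3.

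Tgfb1, the ligand most studied in fibrosis and immune control, rose at both times. Its level in controls was between 28.1 and 37.2 CPM (median 34.1), at 2 weeks between 41.5 and 46.5 (median 45.8), and at 6 weeks between 49.97 and 60.6 (median 54.6), in CPM after TMM normalization (trimmed mean of M-values). No mouse of a later group fell into the range of an earlier one, so the 3 groups were wholly apart. The rise was 1.35-fold at 2 weeks (log2 fold change 0.44, edgeR adjusted P = 0.00105, SE 0.0662) and 1.66-fold at 6 weeks (0.73, adjusted P = 7.39e-07, SE 0.0662). Between 2 and 6 weeks Tgfb1 rose by a further 0.29 on the log2 scale (adjusted P = 0.0185, SE 0.0654). These calls were made in 12 of 12 other settings and in 18 of 18 fits that each left out 1 mouse, in all 3 comparisons.

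The other ligands gave no call in any comparison. Tgfb2, the isoform that depends most on betaglycan, was between 13.1 and 37.7 CPM in controls (median 14.7), 14.6 and 20.5 at 2 weeks (median 16.4) and 14.0 and 24.2 at 6 weeks (median 18.7). The groups overlapped, and the control range was set by replicate 4 alone, since the other 5 controls ended at 16.6. Its log2 fold change was -0.12 (adjusted P = 0.805, SE 0.22) at 2 weeks and 0.02 (adjusted P = 0.955, SE 0.219; 95% interval -0.44 to 0.48) at 6 weeks. Without control replicate 4 the value at 6 weeks was 0.37 (adjusted P = 0.0382), past the threshold, and that at 2 weeks 0.22 (adjusted P = 0.334).

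Tgfb3, known for palate and lung development, was between 16.7 and 37.9 CPM in controls (median 20.8), 15.7 and 25.8 at 2 weeks (median 18.6) and 14.7 and 22.5 at 6 weeks (median 17.6). Control replicate 4 was again the highest mouse, with the others at or below 21.8, and the groups overlapped. The log2 fold change was -0.29 at 2 weeks (adjusted P = 0.362, SE 0.169) and -0.36 at 6 weeks (adjusted P = 0.137, SE 0.169). Without control replicate 4 these values were -0.0848 (adjusted P = 0.761) and -0.16 (adjusted P = 0.418). Tgfb3 overlaps Ttll5 on the opposite strand. The strand setting of the counting is not given in the sources used here, so reads of the overlapping parts cannot be assigned with certainty.

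**Figure D1:**
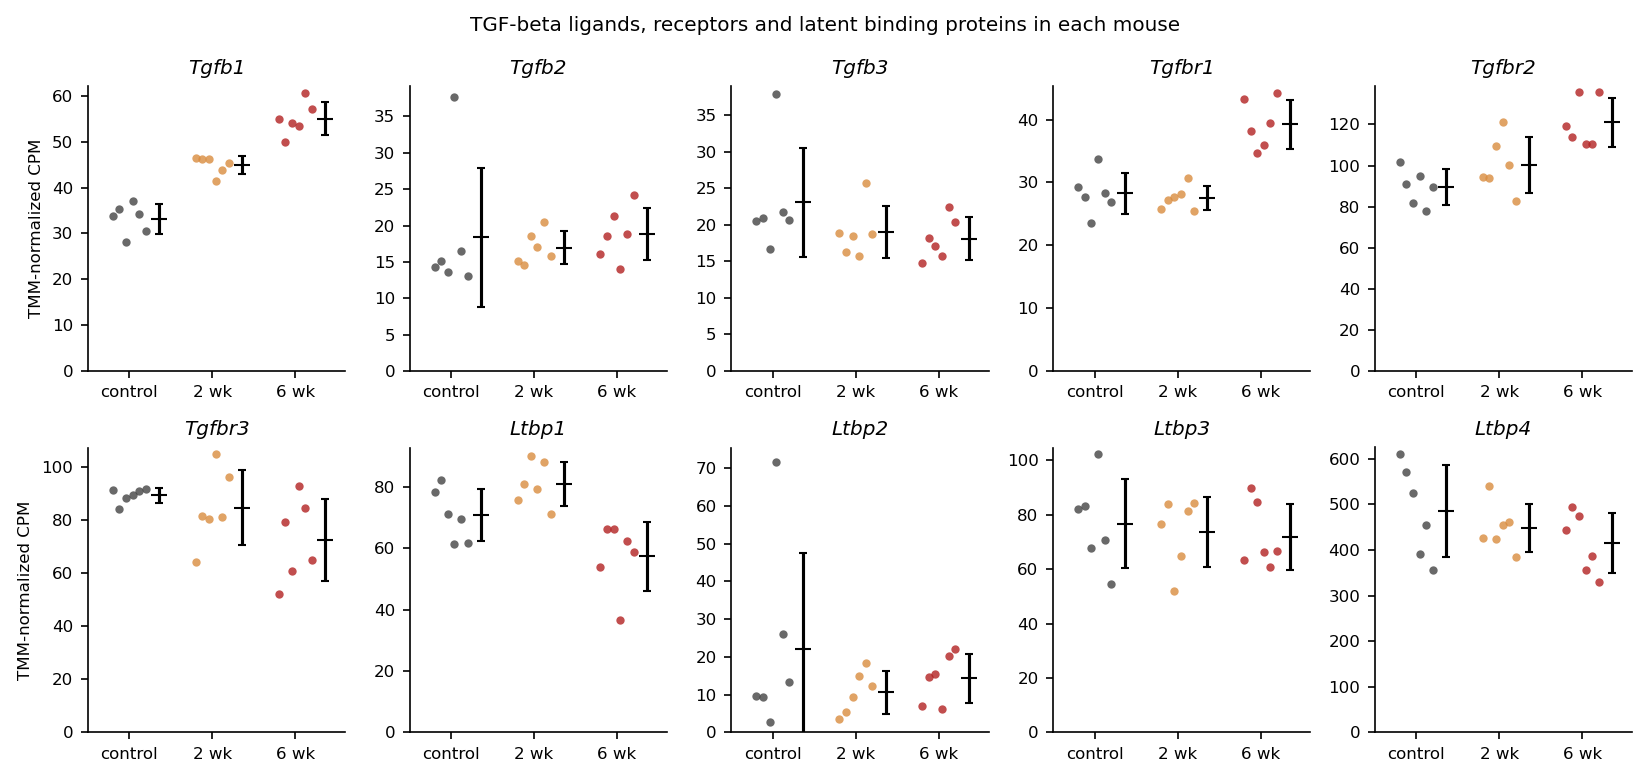
Level of each member in TMM-normalized CPM (y axis, linear, from 0), with 1 point per mouse and 6 mice per group (x axis: control, 2 weeks and 6 weeks post-IR), beside the mean and SD; the lower end of the Ltbp2 control bar is drawn only to 0. The 3 groups of Tgfb1 do not overlap, the 6-week mice of Tgfbr1 lie above all others, and control replicate 4 is the high point for Tgfb2, Tgfb3 and Ltbp2.

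Among receptors, Tgfbr1, the kinase that phosphorylates SMAD2 and SMAD3, rose late. It was between 23.6 and 33.7 CPM in controls (median 28.01), 25.4 and 30.8 at 2 weeks (median 27.5), and 34.6 and 44.3 at 6 weeks (median 38.79). All 2-week mice lay within the control range, and every 6-week mouse lay above both. The log2 fold change was -0.04 at 2 weeks (adjusted P = 0.843, SE 0.0824, 95% interval -0.21 to 0.13), 0.47 at 6 weeks (adjusted P = 0.000357, SE 0.0818) and 0.51 from 2 to 6 weeks (adjusted P = 0.00276, SE 0.0816). Both calls of Tgfbr1 were also made in 12 of 12 other settings and without each mouse in turn.

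Tgfbr2, the receptor that binds ligand first, rose at 6 weeks. Controls were between 77.6 and 101.9 CPM (median 90.3), 2-week mice between 82.6 and 121.1 (median 97.3) and 6-week mice between 110.5 and 135.8 (median 116.7). The 6-week mice lay above all controls, and 2-week mice overlapped both groups. The log2 fold change was 0.16 at 2 weeks (adjusted P = 0.314, SE 0.0896), 0.44 at 6 weeks (adjusted P = 0.00152, SE 0.0896) and 0.27 from 2 to 6 weeks (adjusted P = 0.0833, SE 0.0893). The last of these passed the threshold with DESeq2 (adjusted P = 0.0481) and with limma voom and sample quality weights (adjusted P = 0.0429).

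Tgfbr3, the co-receptor betaglycan, gave no call and varied more between irradiated mice in CPM, but not in TPM. Controls lay within 84.2 and 91.7 CPM (SD 2.83), whereas 2-week mice ranged from 64.3 to 104.6 (SD 14.0) and 6-week mice from 52.0 to 92.6 (SD 15.5). The irradiated mice reached both below and above the narrow control range, and this spread is a description without a test. In TPM the SDs were alike, at 2.13 in controls, 2.13 at 2 weeks and 2.37 at 6 weeks. Its log2 fold change at 6 weeks was -0.30 (adjusted P = 0.0801, SE 0.124, 95% interval -0.56 to -0.05). With limma voom and sample quality weights the adjusted P was 0.0428, and without 6-week replicate 4 it was 0.0229 (log2 fold change -0.39). On both TPM scales the log2 fold change at 6 weeks went the opposite way, 0.14 and 0.15 (limma adjusted P = 0.189 and 0.188).

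Ltbp1, which ties latent TGF-beta 1 to fibronectin and fibrillin, was lower at 6 weeks than at 2 weeks. It was between 61.5 and 82.0 CPM in controls (median 70.2), 71.1 and 90.1 at 2 weeks (median 79.9) and 36.6 and 66.4 at 6 weeks (median 60.5). The control range overlapped both others, and the 2-week and 6-week mice did not overlap. From 2 to 6 weeks it fell by 0.50 on the log2 scale (adjusted P = 0.0229, SE 0.117). Against controls its log2 fold change was 0.19 at 2 weeks (adjusted P = 0.374, SE 0.117) and -0.30 at 6 weeks (adjusted P = 0.0674, SE 0.117). The fall from 2 to 6 weeks missed the threshold without 6-week replicate 1 (-0.48, adjusted P = 0.0504), with scaling by library size only (-0.38, adjusted P = 0.0739) and on both TPM scales (-0.34 and -0.37, adjusted P = 0.102 and 0.113).

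The other binding proteins gave no call. Ltbp2, which does not bind latent TGF-beta and is known in fibrillin matrix, was between 2.87 and 71.7 CPM in controls (median 11.5), 3.52 and 18.3 at 2 weeks (median 10.8) and 6.15 and 21.97 at 6 weeks (median 15.1). Control replicate 4 held the highest value, 71.7 against at most 26.1 in the other controls, and the groups overlapped. The log2 fold change of Ltbp2 at 2 weeks was -1.07 (adjusted P = 0.299, SE 0.564), the farthest from 0 of any member, and without that mouse -0.21 (adjusted P = 0.848). At 6 weeks it was -0.66 (SE 0.554, 95% interval -1.82 to 0.50), and without that mouse 0.20 (adjusted P = 0.801), in the opposite direction. Ltbp3, which carries latent TGF-beta in bone and vessels, ranged from 52.0 to 102.2 CPM over the 18 mice, with log2 fold changes of -0.06 at 2 weeks and -0.09 at 6 weeks (adjusted P = 0.869 and 0.690). Ltbp4 ranged from 330.5 to 610.3 CPM, with log2 fold changes of -0.11 and -0.23 (adjusted P = 0.672 and 0.225).

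**Figure D2:**
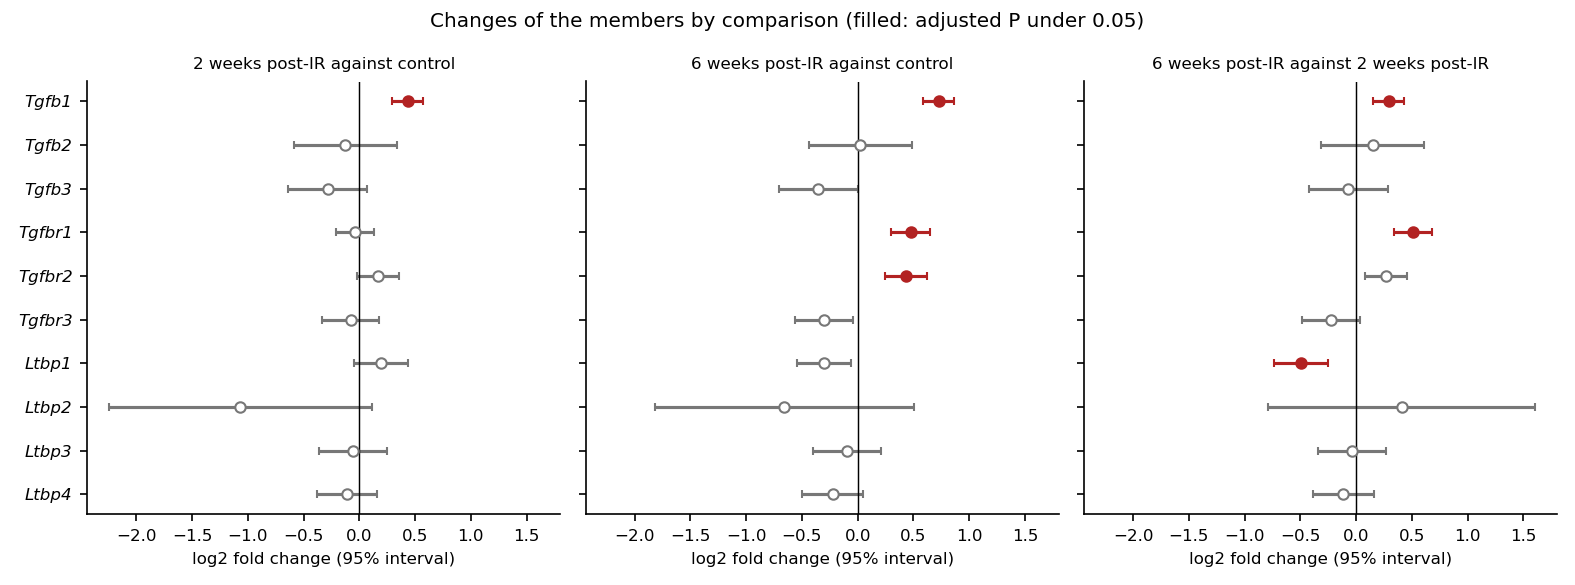
Log2 fold change of each member with its 95% interval (x axis) in the 3 comparisons (panels), from edgeR over 18 mice; filled points have an adjusted P under 0.05. Tgfb1 is filled in all 3 panels, Tgfbr1 in both panels that hold 6-week mice as the first group, Tgfbr2 at 6 weeks against control, and Ltbp1, the only filled point below 0, from 2 to 6 weeks.

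Counted together, 1 of 10 members was called at 2 weeks (5.02% of all genes tested), 3 of 10 at 6 weeks (25.0% of all genes) and 3 of 10 from 2 to 6 weeks (5.33% of all genes). The count at 6 weeks was thus near the share of all genes called there. The member called at 2 weeks was higher (3.09% of all genes were called higher and 1.93% lower), the 3 at 6 weeks were higher (13.5% higher and 11.5% lower), and from 2 to 6 weeks 2 were higher and 1 lower (3.31% and 2.01%). Members called with a log2 difference beyond 1 in either direction were 0 in each comparison by edgeR (0.903%, 5.95% and 1.14% of all genes). Groups that did not overlap were found in 1, 3 and 3 of 10 members (3.24%, 9.23% and 3.54% of all genes). The median log2 fold change of the members was -0.07, -0.16 and 0.06 in the 3 comparisons, against -0.00153, -0.019 and -0.000754 over all genes tested. Receptors had 0 of 3 calls at 2 weeks by edgeR, with 0 at an unadjusted P under 0.05 and 0 by DESeq2 or limma voom, and the LTBPs had 0 of 4 in each of those counts. At 6 weeks the LTBPs had 0 of 4 calls by edgeR, DESeq2 and limma voom, and 1 (Ltbp1) at an unadjusted P under 0.05. The comparisons with controls share the same 6 control mice, and all use a single fit.

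Shares within a mouse do not depend on scaling between mice, and in these terms Tgfb1 took up more of the ligand transcripts after irradiation. Its share of the summed ligand TPM had a mean of 56.7 ± 6.21% (SD, n = 6) in controls, which compared with 66.3 ± 2.91% in 2-week and 70.4 ± 3.21% in 6-week mice. Without control replicate 4, where it was 44.3%, the control share was 59.2 ± 1.31% (n = 5), with a highest value of 60.63% against lowest values of 60.57% at 2 weeks and 67.3% at 6 weeks. Tgfb3 went from 28.8 ± 2.75% through 21.3 ± 2.42% to 17.7 ± 2.23%, with every control (lowest 26.5%) above every irradiated mouse (highest 26.0%), while the TPM of Tgfb3 itself was 6.68 ± 2.53, 6.38 ± 1.26 and 6.78 ± 1.06. The share of Tgfb2 was 14.5 ± 3.67%, 12.4 ± 1.13% and 11.9 ± 1.80%, and its ranges overlapped.

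Receptor transcripts had a different makeup at 6 weeks. Tgfbr3 made up 43.0 ± 3.13% of the summed receptor TPM in controls, 41.3 ± 2.61% at 2 weeks and 31.6 ± 5.31% at 6 weeks, where the highest mouse (38.7%) lay below the lowest mouse of either other group (40.0% and 38.75%). Tgfbr1 went from 17.4 ± 2.23% and 16.2 ± 1.39% to 22.1 ± 3.56%, and Tgfbr2 from 39.6 ± 3.902% and 42.5 ± 3.17% to 46.2 ± 3.53%, with overlapping ranges between controls and 6-week mice. Among the LTBPs, Ltbp4 held 74.6 ± 6.02%, 73.4 ± 1.86% and 75.7 ± 2.56%. These shares are descriptions with no test.

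**Figure D3:**
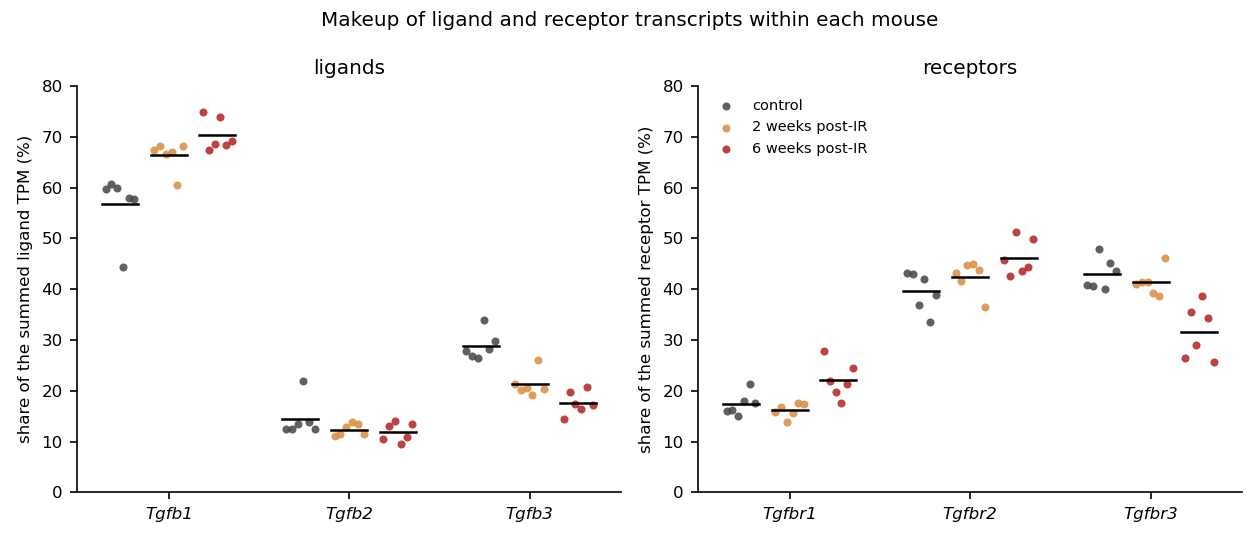
Share of each ligand in the summed TPM of the 3 ligands (left) and of each receptor in that of the 3 receptors (right), in percent on a linear y axis, with 1 point per mouse, 6 mice per group and a bar at the group mean. Between controls and 6-week mice the mean share of Tgfb1 goes from 56.7% to 70.4%, that of Tgfb3 from 28.8% to 17.7% and that of Tgfbr3 from 43.0% to 31.6%.

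Control replicate 4 stood apart in other matrix genes too, with Postn (periostin) at 306.1 CPM against a control median of 53.1, Lox at 53.5 against 3.69, Col1a1 at 898.7 against 269.4 and Timp1 at 14.3 against 1.87, all 4 named after their values were seen. Its total count and mitochondrial share (23.2%) were within the range of the other controls. Without that mouse, 5 of 10 members were called at 6 weeks: Tgfb1, Tgfbr1, Tgfbr2 and Tgfb2 higher and Ltbp1 lower (-0.34, adjusted P = 0.0478). Over all genes 3927 of 14992 were called in that fit. Tgfb2 is a gene in which that mouse was itself high, so its call there follows in part from the choice of mouse. Over 18 mice and after the mean of each group was subtracted, log2 CPM of Tgfb2 and Tgfb3 had a Pearson r of 0.835, which was 0.616 over the 17 mice without control replicate 4. The pairs Tgfb2 with Ltbp2 and Tgfb3 with Ltbp2 went from 0.806 to 0.700 and from 0.784 to 0.636 in the same way. These correlations are descriptions, and no P is given.

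Likeness to other genes was measured in that same way, over 18 mice. The genes nearest to Tgfb1 were Rab8b (r = 0.901) and Tubgcp4 (0.854), and those nearest to Tgfbr1 were Slc9a9 (0.889) and Olfm1 (0.882). Tgfbr2 was nearest to Ebf4 (0.778) and Ppp1r7 (0.755), and Ltbp1 to Rorb (0.829) and Fbxo36 (0.801). They are the highest of all genes tested, so high values are partly a matter of that choice.

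Markers of heart cell types were measured in the same libraries. The 5 cardiomyocyte markers (Myh6, Tnnt2, Tnni3, Ryr2 and Actc1) were all present, and their summed level went from a median of 34230 CPM in controls (25300 to 39130) to 29410 at 2 weeks (27120 to 35060) and 23830 at 6 weeks (20530 to 28080), with 5 of 5 called lower at 6 weeks. The 5 macrophage markers summed to 193.4 CPM in controls (124.8 to 394.8), 277.7 at 2 weeks (247.1 to 320.3) and 391.2 at 6 weeks (346.0 to 465.3), and 5 of 5 were called higher at 6 weeks. Over all genes tested, 13.5% were called higher and 11.5% lower at 6 weeks. Endothelial markers summed to medians of 772.5, 838.6 and 959.6 CPM, with Pecam1 and Cdh5 called higher and Tie1 lower at 6 weeks, and fibroblast markers to 747.3, 643.6 and 598.1, with 1 of 5 (Pdgfra) called lower. Smooth muscle and pericyte markers (507.4, 501.3 and 512.9) and platelet markers (9.94, 8.99 and 9.93) had no call. Several of these cell types can express TGF-beta ligands and receptors. The part of these shifts, higher or lower, in the changes of Tgfb1, Tgfbr1, Tgfbr2 and Ltbp1 was not tested. In bulk RNA, fewer cells of a type and less RNA per cell cannot be told apart. Atrial markers ranged from 0.661 to 582.9 CPM, the highest in 2-week replicate 5, the mouse that also had the highest 2-week level of Tgfb3 (25.8 CPM). T cell markers summed to 1.27, 1.15 and 3.14 CPM, B cell markers to 0.493, 1.26 and 1.99, mesothelial markers to 9.002, 15.3 and 10.96 and Schwann cell markers to 3.17, 4.05 and 2.42, and no marker was at 0 in all mice of a group. Of the markers tested, 1 of 3 for T cells, 2 of 3 for B cells and 1 of 3 for mesothelium were called higher at 6 weeks.

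The other genes of the pathway were taken from 5 lists with 53 genes, all of which passed the filter. In the list of the latent complex and its activation, 1 of 13 genes was called at 2 weeks, 5 at 6 weeks and 3 from 2 to 6 weeks, all higher, where 3.09%, 13.5% and 3.31% of all genes were called higher. Without control replicate 4 the counts were 3, 8 and 4, all higher. Gained were Bmp1 and Fbn1 at 2 weeks, Bmp1, Fbn1 and Emilin1 at 6 weeks and Itgb1 from 2 to 6 weeks. Over all genes 862, 3927 and 994 of 14992 were called in that fit. At 2 and 6 weeks 565 and 2130 of them were higher. Leaving that mouse out lowered the control levels of Bmp1, Fbn1 and Emilin1. The log2 fold change of Fbn1 thus went from 0.57 to 0.96 at 2 weeks and from 0.53 to 0.92 at 6 weeks. The calls gained by Bmp1, Fbn1 and Emilin1 are no separate support for a rise. For Itgb1 from 2 to 6 weeks the log2 fold change stayed at 0.28. Nrros, which tethers latent TGF-beta on myeloid cells, went from 8.82 ± 2.02 to 11.8 ± 1.22 and 18.8 ± 3.55 CPM (SD, n = 6), and at 6 weeks it did not overlap with controls (log2 fold change 1.08, adjusted P = 3.33e-05, SE 0.144). Lrrc32 (GARP), its counterpart on platelets, regulatory T cells and endothelium, rose by 0.73 at 6 weeks (adjusted P = 0.00247, SE 0.161). Thbs1 (thrombospondin 1), which can activate latent TGF-beta, went from 18.3 ± 10.3 to 76.4 ± 41.7 CPM at 6 weeks, a log2 fold change of 2.05 (adjusted P = 0.000802, SE 0.390) with overlapping groups. Itgb3, the integrin beta 3 subunit, went from 2.57 ± 0.358 to 6.06 ± 2.42 CPM (1.24, adjusted P = 0.000655, SE 0.229). Emilin1, a matrix inhibitor of proTGF-beta processing, was the gene called at 2 weeks (0.54, adjusted P = 0.0383), and Itgb1 completed the 5 at 6 weeks (0.33, adjusted P = 0.0104), both named after their values were seen.

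Co-receptors and ligand traps were called higher in 3 of 7 genes at 2 weeks, 4 of 7 at 6 weeks and 2 of 7 from 2 to 6 weeks, against the same 3.09%, 13.5% and 3.31% of all genes. Cd109, a co-receptor that restrains TGF-beta signalling, went from 6.08 ± 2.25 to 10.6 ± 1.24 and 24.4 ± 6.13 CPM, with log2 fold changes of 0.78 at 2 weeks (adjusted P = 0.0404, SE 0.212), 1.99 at 6 weeks (adjusted P = 3.22e-06, SE 0.207) and 1.21 from 2 to 6 weeks (adjusted P = 0.00309, SE 0.195). Eng (endoglin), the endothelial co-receptor, rose by 0.51 at 6 weeks (adjusted P = 0.000723, SE 0.0954). Its call from 2 to 6 weeks (0.33, adjusted P = 0.0496) was lost with upper-quartile scaling (adjusted P = 0.0531) and without mitochondrially encoded genes (adjusted P = 0.0536). Acvrl1 (ALK1), the endothelial type I receptor, was higher by 0.32 at 2 weeks (adjusted P = 0.0120) and 0.34 at 6 weeks (adjusted P = 0.00135). Vasn (vasorin), a membrane protein that traps TGF-beta, was higher by 0.28 and 0.37 (adjusted P = 0.0401 and 0.00177). Eng and Acvrl1 are read together with the endothelial markers above, of which Pecam1 rose by 0.90 and Tie1 fell by 0.44 on the log2 scale at 6 weeks.

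Signal transducers gave 0 of 9 calls at 2 weeks by edgeR, DESeq2 and limma voom, with 0 at an unadjusted P under 0.05. At 6 weeks 3 of 9 were called by edgeR, where 25.0% of all genes were. Smad1, a mediator of BMP and ALK1 signals, was higher (0.37, adjusted P = 0.0147, SE 0.106). Zfyve9 (SARA, a SMAD2 and SMAD3 anchor) and Tab1 (an activator of the kinase TAK1) were lower (-0.20 and -0.46, adjusted P = 0.0217 and 0.0295). With scaling by library size only, neither Zfyve9 nor Tab1 was called. The log2 fold change of Zfyve9 was then 0.068 (adjusted P = 0.468), in the opposite direction, and that of Tab1 was -0.19 (adjusted P = 0.352). Smad2, Smad3 and Smad4, the core mediators, were not called, at 0.43, 0.053 and -0.17. From 2 to 6 weeks the list had 0 of 9 calls by edgeR and limma voom, 1 by DESeq2 and 2 at an unadjusted P under 0.05. Intracellular inhibitors gave 0 of 11 calls at 2 weeks by edgeR, DESeq2 and limma voom, with 2 at an unadjusted P under 0.05, and 3 of 11 at 6 weeks, near the 25.0% of all genes called there. These 3 were higher, the nuclear repressors Tgif1 (0.90, adjusted P = 0.000744, SE 0.169) and Skil (0.50, adjusted P = 0.00633, SE 0.126), and the inhibitory Smad7 (0.46, adjusted P = 0.0121, SE 0.128). Skil was also higher at 6 than at 2 weeks (0.54, adjusted P = 0.0214). Without control replicate 4 the inhibitors had 1, 5 and 2 calls in the 3 comparisons, with Tgif1 gained at 2 weeks, Strap and Nedd4l (both lower) at 6 weeks and Smad7 from 2 to 6 weeks, and the transducers had 0, 3 and 0. Over all genes 862, 3927 and 994 of 14992 were called in that fit.

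Genes known to be induced by TGF-beta had 0 of 13 calls at 2 weeks by edgeR and limma voom, with 1 by DESeq2 and 1 (Acta2) at an unadjusted P under 0.05. At 6 weeks 2 of 13 were called by edgeR, which called 5.02% of all genes at 2 weeks and 25.0% at 6 weeks. The counts of this list depended on control replicate 4: without it 3 of 13 were called at 2 weeks and 8 of 13 at 6 weeks, all higher, and the median of the list at 6 weeks went from 0.18 to 0.70. Over all genes 862 of 14992 were then called at 2 weeks and 3927 of 14992 at 6 weeks, of which 565 and 2130 were higher. Control replicate 4 was high in Postn, Lox, Col1a1 and Timp1, as given above, so leaving it out lowers their control level by construction. The control levels of Fn1, Col1a2 and Col3a1 were also lower without it, as their log2 fold changes below show. The calls that any of these genes gained without it are no separate support for a rise. Fn1 (fibronectin) went from 187.3 ± 102.1 to 276.5 ± 39.9 and 545.7 ± 178.5 CPM, a log2 fold change of 1.54 at 6 weeks (adjusted P = 0.000478, SE 0.275) with overlapping groups. At 2 weeks its log2 fold change was 0.56 with all mice (adjusted P = 0.250) and 0.89 without control replicate 4 (adjusted P = 0.0245). Fn1 was also higher at 6 than at 2 weeks (0.98, adjusted P = 0.0426). The collagen genes Col1a1, Col1a2 and Col3a1 were not called with all mice, at 0.10, -0.02 and 0.18 at 6 weeks. Without control replicate 4 they were called at 0.63, 0.39 and 0.69 (adjusted P = 0.0196, 0.0437 and 0.00553), and Col1a1 and Col3a1 also at 2 weeks (0.67 and 1.002, adjusted P = 0.0437 and 0.00295). Postn, Timp1 and Lox, at 0.76, 0.44 and -0.42 with all mice at 6 weeks and not called, were called at 1.79, 1.62 and 1.24 without that mouse (adjusted P = 0.000388, 0.00168 and 0.0103). Ccn2 (0.26), Tgfbi (0.15) and Acta2 (0.00) were called in neither fit at 6 weeks. With all mice the median of this list at 6 weeks was 0.18, against 0.33 for latent complex and activation, 0.34 for co-receptors, -0.11 for transducers and 0.11 for inhibitors.

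**Figure D4:**
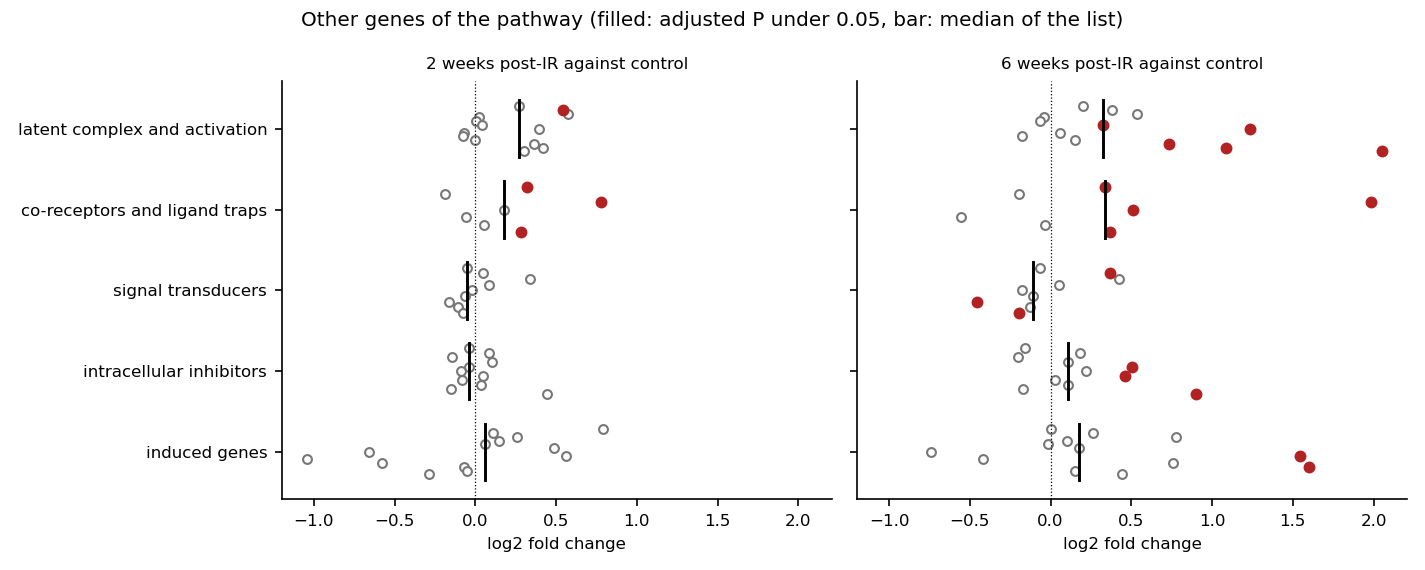
Log2 fold change (x axis) of 53 other genes of the pathway in 5 lists (rows) at 2 weeks (left) and 6 weeks (right) against control, with all 18 mice, 1 point per gene and a bar at the median of the list; filled points have an adjusted P under 0.05 by edgeR. At 6 weeks the filled points of 4 lists lie above 0, with Thbs1 and Cd109 highest at 2.05 and 1.99, and the transducers have filled points on both sides.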

How the data were processed

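RNA of 18 mice was sequenced by the authors, who aligned reads, quantified transcripts with Salmon 1.0 on GRCm38, per the labels, and summed them to genes with tximport. The deposited estimated counts are whole for some genes and fractional for others, are not normalized between mice, and the deposited TPM values are scaled by the authors for length and depth within a mouse. Long genes collect more counts, so levels of different genes were compared only as TPM.

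Rounded counts were fitted with edgeR 4.0.16 (R 4.3.3), keeping genes that reached 0.23 CPM in 6 mice or more, with TMM scaling, 1 quasi-likelihood fit of 3 groups, F tests (two-sided) and Benjamini-Hochberg adjustment over 15054 genes, called at an adjusted P under 0.05. Named were all members, up to 4 genes per list with the smallest adjusted P, and the 2 nearest genes of each member called; genes given as not called and those marked in the text were picked after their values were seen. The members and lists were chosen with earlier results of these data known. Mice were taken as independent replicates, and no libraries were duplicates (0 identical of 45 pairs within groups). Code was tested on simulated counts. Alternatives were DESeq2 1.42.0, voom of limma 3.58.1, scaling, filter, thresholds, TPM with pseudocounts 1 and 0.1 (log2 differences understate changes of low genes), a block for the replicate number, a covariate for Y-linked expression, and fits without each mouse. Coordinates are GRCm38. Protein data were not analysed here, and some values are not reported here.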

Additional observations from a re-analysis of the deposited data

Results flagged for a closer look

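Control replicate 4 was farther from the other 5 controls than Dixon's 95% limit for Tgfb2 (37.7 CPM), Tgfb3 (37.9 CPM) and Ltbp2 (71.7 CPM), and so was 2-week replicate 5 for Tgfb3 (25.8 CPM). Of 30 groups tested 4 passed that limit, where chance gives about 1 in 20, and 3 of the 4 were the same mouse.

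The change from control differed between 6 and 2 weeks for Tgfb1 by 0.29 (adjusted P = 0.0185), for Tgfbr1 by 0.51 (adjusted P = 0.00276) and for Ltbp1 by -0.50 (adjusted P = 0.0229) on the log2 scale, by edgeR's test of the difference itself. All 6 mice at 6 weeks were above all 6 at 2 weeks for Tgfb1 and Tgfbr1, and below them for Ltbp1.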

How the results depend on the processing

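The number of members called was 1, 3 and 3 at 2 weeks, at 6 weeks and from 2 to 6 weeks. At 2 weeks it was 3 on both TPM scales, which added Tgfbr2 and Ltbp1. At 6 weeks it was 5 with the replicate number as a block, with Y-linked expression as a covariate and at an adjusted P under 0.1, and between 3 and 5 when a mouse was left out, with 5 only without control replicate 4. From 2 to 6 weeks it was 1 at an adjusted P under 0.01. It was 0 in each comparison when log2 values also had to lie beyond 1 in either direction, by edgeR. Over all genes at 6 weeks, 3549 of 15054 were called with the replicate block, 3872 of 15054 with the covariate and 3927 of 14992 without control replicate 4. The replicate block added Tgfbr3 (-0.33, adjusted P = 0.0333) and Ltbp1 (-0.31, adjusted P = 0.0334) at 6 weeks. Replicate numbers did not pair the mice, since same-numbered deviations had an r over 0.1 in 1, 1 and 0 of 6 pairs (lowest -0.0828, highest 0.106), and the samples share only a number. In the 3 comparisons 0, 1 and 2 of 6 mice correlated best with their own number.

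Scaling moved all genes together. With library size only, the middle log2 value over all genes was 0.15, 0.24 and 0.11, with log2(TPM + 1) 0.18, 0.29 and 0.12, and with log2(TPM + 0.1) 0.24, 0.37 and 0.15. Genes called higher at 6 weeks were 2029 of 3760 with TMM, 5494 of 5820 with library size only and 7354 of 7472 with log2(TPM + 1); at 2 weeks they were 465 of 755, 1707 of 1789 and 2774 of 2813; and from 2 to 6 weeks 499 of 802, 1098 of 1202 and 1026 of 1073. Without the filter on low counts 573, 3376 and 567 genes were called, and with DESeq2 1216, 3954 and 1164. The rises of Tgfb1, Tgfbr1 and Tgfbr2 at 6 weeks kept their direction and their call in 12 of 12 other settings and 18 of 18 fits without a mouse.

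Members without a call changed sign as follows, in log2 fold changes. With library size only they were Tgfb2 0.015, Tgfbr1 0.11, Tgfbr3 0.072, Ltbp3 0.081 and Ltbp4 0.030 at 2 weeks, Ltbp3 0.16 and Ltbp4 0.035 at 6 weeks, Tgfb3 0.039, Ltbp3 0.082 and Ltbp4 0.0049 from 2 to 6 weeks. With log2(TPM + 1) they were Tgfb2 0.16, Tgfbr1 0.18, Tgfbr3 0.23, Ltbp3 0.15 and Ltbp4 0.092 at 2 weeks, Tgfb3 0.061, Tgfbr3 0.14, Ltbp1 0.069, Ltbp3 0.27 and Ltbp4 0.17 at 6 weeks, Tgfb3 0.080, Ltbp3 0.13 and Ltbp4 0.083 from 2 to 6 weeks. With log2(TPM + 0.1) they were Tgfb2 0.22, Tgfbr1 0.20, Tgfbr3 0.24, Ltbp3 0.16 and Ltbp4 0.093 at 2 weeks, Tgfb3 0.075, Tgfbr3 0.15, Ltbp1 0.072, Ltbp2 0.048, Ltbp3 0.30 and Ltbp4 0.18 at 6 weeks, Tgfb3 0.092, Ltbp3 0.14 and Ltbp4 0.083 from 2 to 6 weeks. With limma voom they were Tgfb2 0.032 at 2 weeks. Leaving out single mice gave ranges across 0: Tgfb2 at 2 weeks -0.20 to 0.22, Tgfbr1 at 2 weeks -0.083 to 0.019, Ltbp3 at 2 weeks -0.14 to 0.042, Tgfb2 at 6 weeks -0.058 to 0.37, Ltbp2 at 6 weeks -0.88 to 0.20, Ltbp3 at 6 weeks -0.17 to 0.0050, Tgfb3 from 2 to 6 weeks -0.14 to 0.038, Ltbp3 from 2 to 6 weeks -0.12 to 0.0074. The causes were not tested.

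The lowest count of a member was 31, for Ltbp2 in a control mouse, and the floor of 3 counts was at most 0.26 CPM.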
